A study of Homo sapiens with 6 samples.

Results

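The polyamine genes described here are 10 of the 58302 genes listed in each library: SAT1, SAT2, SMOX, ODC1, AMD1, SRM, SMS, OAZ1, OAZ2 and AZIN1. They were taken by gene symbol, and each symbol matched 1 row. RNA was sequenced from HCCLM3, an established human hepatocellular carcinoma line, after transfection with a control antisense oligonucleotide (Control ASO, 3 libraries) or with one against the small Cajal body-specific RNA SCARNA13 (SCARNA13 ASO, 3 libraries). Antisense oligonucleotides are synthetic nucleic acids that base-pair with a target transcript to reduce it. Neither dose, nor time after transfection, nor separate cultures could be read from the labels, so replicate spread here may be technical. The set was selected on the low SAT1 FPKM after SCARNA13 ASO, already known from these libraries, and the other 9 genes were chosen by their function in the same pathway. Differences between the groups are therefore given for the 10 genes as a description. The fits run across all genes also made calls on them, which are counted below and support nothing.

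Putrescine, spermidine and spermine are small, positively charged polyamines that bind nucleic acids and are needed for growth. ODC1 makes putrescine from ornithine, AMD1 provides the aminopropyl groups, and the synthases SRM and SMS build spermidine and then spermine. SAT1 acetylates spermidine and spermine so that they can be oxidised or exported, and SMOX oxidises spermine directly. Antizymes (OAZ1, OAZ2) bind ODC1, send it to the proteasome and restrain polyamine uptake, and the inhibitor AZIN1 binds antizyme in its place. Much of this control acts on translation and protein decay, which RNA levels do not show.

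Values are FPKM, sequenced fragments per kilobase of gene divided by a library size. The size implied by the values was not the read total. It was 1.21 to 1.24 times the reads on genes in replicates 1 and 2. In replicate 3 it was 0.633 (Control ASO) and 0.760 (SCARNA13 ASO) times those reads, so replicate 3 FPKM are higher than read totals would give. Overlaps and pair changes below hold for FPKM as scaled. The libraries held 20457474 to 25173559 reads on genes. SCARNA13 itself measured 0.717, 0.683 and 0.556 FPKM in Control ASO replicates 1, 2 and 3 and 0.268, 0.383 and 0.468 FPKM after SCARNA13 ASO, from 2 to 6 reads per library, so its decrease rests on few reads. Most defining liver genes were at or near 0: ALB, APOA2, APOB and FGB, 4 of 9 hepatocyte markers, were listed at 0 in all 6 libraries and AFP did not exceed 0.197 FPKM. SERPINA1 was the 1 hepatocyte marker to pass the filter, at 1.55 to 3.19 FPKM in controls and 1.37 to 2.54 FPKM after SCARNA13 ASO. The keratin genes KRT8, KRT18 and KRT19 were abundant, at 389 FPKM or more, and CDH1 was listed at 0. Fibroblast markers, mainly COL3A1, summed to 5.83 to 6.87 FPKM in controls and 6.24 to 8.39 FPKM after SCARNA13 ASO, 4 endothelial markers to at most 0.106 FPKM, and of 5 immune markers CD14 alone passed 1 FPKM. Both replicate 3 libraries stood apart from the others along the GC content of the genes. Differences are therefore also given without replicate 3.

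The 250 bases before the starts of the acetyltransferase genes SAT1 and SAT2 are shown because these relatives differed in opposite directions in all 3 pairs. They are the RefSeq starts on GRCh38.p14, at chrX:23782923-23783172 on the plus strand and chr17:7627877-7628126 on the minus strand, written 5′ to 3′. Capitals mark matches, on either strand, to the letters CCAAT or to the antioxidant motif TGACNNNGC.
SAT1: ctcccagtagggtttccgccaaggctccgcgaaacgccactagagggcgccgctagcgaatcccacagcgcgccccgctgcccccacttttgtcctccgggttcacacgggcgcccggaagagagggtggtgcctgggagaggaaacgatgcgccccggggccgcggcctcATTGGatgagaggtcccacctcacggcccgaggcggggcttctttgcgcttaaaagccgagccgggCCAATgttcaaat
SAT2: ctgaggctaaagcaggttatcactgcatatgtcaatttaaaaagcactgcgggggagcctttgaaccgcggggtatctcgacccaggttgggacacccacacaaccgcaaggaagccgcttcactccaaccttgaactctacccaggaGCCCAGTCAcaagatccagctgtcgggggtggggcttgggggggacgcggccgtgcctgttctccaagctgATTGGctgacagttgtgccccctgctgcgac
SAT1 held CCAAT at 2 places, the match beginning 79 and 13 bases before the start, and SAT2 held it at 31 bases. Of 35116 RefSeq promoters of the same length, 32.0% held CCAAT. The antioxidant motif was found in SAT2, 102 bases before the start, and in 10.9% of all promoters. Neither promoter held CACGTG (6.34% of all promoters), TATAAA (10.7%), TGACTCA or TGAGTCA (4.20%) or GGGCGG (42.6%). Promoters of 8 of the 10 genes were in the RefSeq table, and GGGCGG was present in the other 6: AMD1, OAZ1, OAZ2, ODC1, SMS and SRM. The start nearest to the start in the deposited annotation was used, which lay 177 bases from it for ODC1 and 136 bases for SMS. CACGTG, the E-box letters bound by MYC, was found in SRM and not in the others. These matches describe the letters, and no binding was measured.

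SAT1, spermidine/spermine N1-acetyltransferase 1 (ENSG00000130066), lies on the plus strand of chromosome X at 23783173 to 23786226 on GRCh38. It measured 25.6, 24.5 and 27.3 FPKM in the Control ASO libraries. After SCARNA13 ASO it measured 10.1, 10.4 and 6.67 FPKM. Every treated library was below every control library, and the groups did not overlap. The group means were 25.8 FPKM ± 1.45 and 9.04 FPKM ± 2.06 (SD, n = 3). Against the control of the same replicate number, SAT1 differed by -60.6%, -57.6% and -75.6% for replicates 1, 2 and 3. Whether fewer cells held SAT1 RNA or each cell held less cannot be told apart in bulk RNA. These values rested on 1943, 1627 and 894 reads in controls and 684, 738 and 259 reads after SCARNA13 ASO.

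On the log2(FPKM + 0.5) scale, where low genes appear to change less than they do, the SAT1 difference was -1.49 ± 0.24 (SE, n = 3) with group as the only term. It was -1.50 ± 0.18 with GC correction and the replicate number as a block, and -1.25 ± 0.049 without replicate 3 (n = 2). With libraries rescaled to equal read totals and group alone it was -1.39 ± 0.42 (SE, n = 3), a wider error. No pseudogene of SAT1 was listed by symbol, and no other annotated gene overlapped it.

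SAT2 (ENSG00000141504, chromosome 17 at 7626234 to 7627876, minus strand) encodes a relative that acetylates thialysine more readily than polyamines. It measured 25.3, 23.5 and 45.4 FPKM in controls. After SCARNA13 ASO it measured 29.8, 31.3 and 51.1 FPKM. Each treated library was above the control of its number, by 17.8%, 33.1% and 12.5%, but the groups overlapped because both replicate 3 libraries were high in FPKM. Control ASO replicate 3 held 976 SAT2 reads of 20663908, replicate 2 held 1028 of 21864034 and replicate 1 held 1266 of 25173559. After SCARNA13 ASO replicates 1, 2 and 3 held 1331 of 21975166, 1465 of 23326235 and 1305 of 20457474. Against these totals every treated library was above every control, so the overlap in FPKM depends on the library sizes used. With libraries rescaled to equal read totals the log2 difference was 0.37 ± 0.14 (SE, n = 3). The log2 difference was 0.27 ± 0.36 (SE, n = 3) with group alone, 0.33 ± 0.054 with GC correction and block, and 0.32 ± 0.057 without replicate 3. SHBG, on the opposite strand, shares no annotated exonic base with SAT2.

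A ratio within a library does not depend on how libraries are scaled, but it keeps the replicate 3 shift along GC content. SAT1 has 43.3% GC and SAT2 56.3%. The median genes of their GC deciles were shifted in replicate 3 by -0.55 and 0.79 on the log2 scale in controls, and by -0.43 and 0.62 after SCARNA13 ASO. SAT1 made up 50.2%, 51.0% and 37.6% of the summed SAT1 and SAT2 FPKM in controls. After SCARNA13 ASO it made up 25.3%, 24.9% and 11.5%. The shares did not overlap between the groups, with means of 46.3% ± 7.53 and 20.6% ± 7.81 (SD, n = 3). The sum of both genes did overlap, at 48.0 to 72.7 FPKM in controls and 39.9 to 57.7 FPKM after SCARNA13 ASO.

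**Figure D1:**
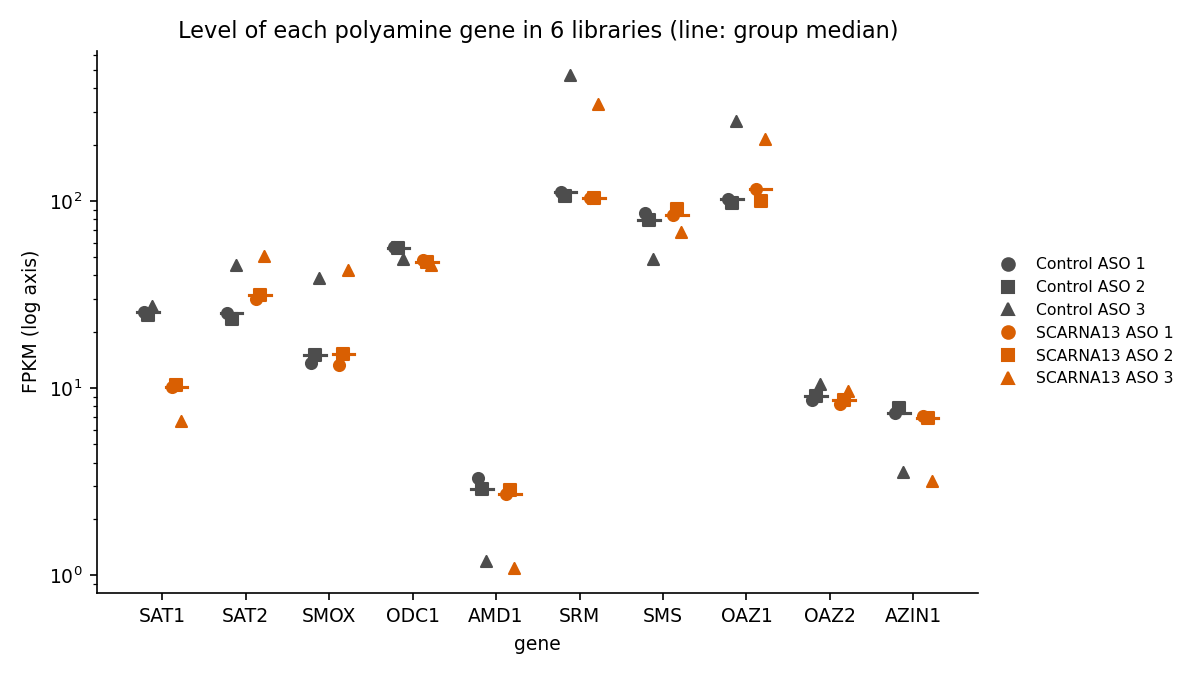
FPKM (log axis) of the 10 polyamine genes in each of 6 libraries, grey for Control ASO and orange for SCARNA13 ASO, with the replicate number as the symbol and a line at each group's median. SAT1 is at 24.5 to 27.3 FPKM in controls and 6.67 to 10.4 FPKM after SCARNA13 ASO, while most other genes separate replicate 3 from the rest more than the groups from each other.

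SMOX, spermine oxidase (ENSG00000088826, chromosome 20 at 4120980 to 4187747), is the direct oxidative route of spermine breakdown. It measured 13.7, 15.0 and 38.8 FPKM in controls and 13.3, 15.2 and 43.0 FPKM after SCARNA13 ASO. Replicate 3 was high in both groups, and within numbers the difference was -0.042, 0.026 and 0.14 on the log2 scale. SMOX stood at -0.0075 ± 0.083 without replicate 3 (SE, n = 2) and at 0.11 ± 0.096 with GC correction and block (SE, n = 3).

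ODC1, ornithine decarboxylase (ENSG00000115758, chromosome 2 at 10439968 to 10448504), was the second gene whose groups did not overlap. It measured 56.6, 55.8 and 49.2 FPKM in controls. After SCARNA13 ASO it measured 48.2, 47.1 and 45.4 FPKM, each below every control. ODC1 had 1912 reads of 20663908 in Control ASO replicate 3 and 2094 of 20457474 in SCARNA13 ASO replicate 3. Against these totals that pair went up, so the separation in FPKM depends on the library sizes used. The means were 53.9 FPKM ± 4.07 and 46.9 FPKM ± 1.45 (SD, n = 3), and the pair changes were -14.8%, -15.6% and -7.81%. The log2 difference of ODC1 was -0.20 ± 0.21 with group alone, -0.17 ± 0.053 with GC correction and block (SE, n = 3), and -0.24 ± 0.042 without replicate 3. With both genes lower but SAT1 by more, the ratio of ODC1 to SAT1 FPKM was 2.10 ± 0.261 in controls and 5.38 ± 1.24 after SCARNA13 ASO (SD, n = 3), with no overlap. An intron of ODC1 holds the small nucleolar RNA gene SNORA80B, which had 2 reads in each of 2 libraries and 0 in the other 4.

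AMD1, S-adenosylmethionine decarboxylase (ENSG00000123505, chromosome 6 at 110874770 to 110895713), had the lowest level of the 10 genes. It measured 3.29, 2.90 and 1.20 FPKM in controls and 2.70, 2.86 and 1.09 FPKM after SCARNA13 ASO. Its fewest reads were 110, in Control ASO replicate 3, for which the exact Poisson 95% limits, of counting error alone, were 90.4 and 133. In FPKM, AMD1 was lower in 3 of 3 pairs, by little in the second (-1.62%), and its groups overlapped. Its replicate 3 reads were 110 in Control ASO and 119 after SCARNA13 ASO.

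The synthase genes differed from each other. SRM, spermidine synthase (ENSG00000116649, chromosome 1 at 11054584 to 11060024), measured 112, 106 and 469 FPKM in controls and 103, 103 and 328 FPKM after SCARNA13 ASO. The pair changes of SRM were -7.46%, -2.67% and -30.0%, so most of its mean difference lay in replicate 3. SMS, spermine synthase (ENSG00000102172), lies on chromosome X at 21940573 to 21994835, on the same arm as SAT1. It measured 86.8, 79.4 and 49.2 FPKM in controls and 84.2, 90.2 and 68.6 FPKM after SCARNA13 ASO. The pair changes of SMS were -2.98%, 13.5% and 39.5%, and its groups overlapped. The ratio of SMS to SAT1 was 3.39, 3.25 and 1.80 in controls and 8.35, 8.70 and 10.3 after SCARNA13 ASO, with no overlap. The ratio of SMOX to SAT1 overlapped, at 0.535, 0.611 and 1.42 in controls and 1.32, 1.47 and 6.44 after SCARNA13 ASO. All such ratios carry the SAT1 difference on which the set was selected.

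OAZ1, the main antizyme gene (ENSG00000104904, chromosome 19 at 2269509 to 2273490), measured 102, 98.2 and 269 FPKM in controls and 116, 99.9 and 214 FPKM after SCARNA13 ASO. Its pair changes were 13.1%, 1.77% and -20.4%. The OAZ1 difference was -0.043 ± 0.51 on the log2 scale with group alone (SE, n = 3) but turned to 0.027 with GC correction and to 0.057 when libraries were rescaled to equal read totals. Exons of JSRP1 on the opposite strand cover 236 of its 3436 exonic bases, where reads cannot be assigned without strand, and those of AC005258.1 on the same strand cover 220. OAZ2 (ENSG00000180304, chromosome 15 at 64687573 to 64703281) measured 8.68, 9.09 and 10.5 FPKM in controls and 8.24, 8.62 and 9.59 FPKM after SCARNA13 ASO. It was lower by similar amounts in 3 of 3 pairs (-5.07%, -5.09% and -8.72%), on overlapping groups, and stood at 0.0048 on the log2 scale with equal read totals. An antisense gene, AC100830.3, covers 554 of its 7671 exonic bases. AZIN1, the antizyme inhibitor (ENSG00000155096, chromosome 8 at 102826357 to 102893864), measured 7.35, 7.80 and 3.58 FPKM in controls and 7.10, 6.89 and 3.18 FPKM after SCARNA13 ASO. Its pair changes were -3.41%, -11.6% and -11.1%, and AZIN1-AS1 covers 344 of its 6426 exonic bases. Without replicate 3 the log2 differences (n = 2) were -0.13 for AMD1, -0.075 for SRM, 0.069 for SMS, 0.10 for OAZ1, -0.071 for OAZ2 and -0.11 for AZIN1.

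**Figure D2:**
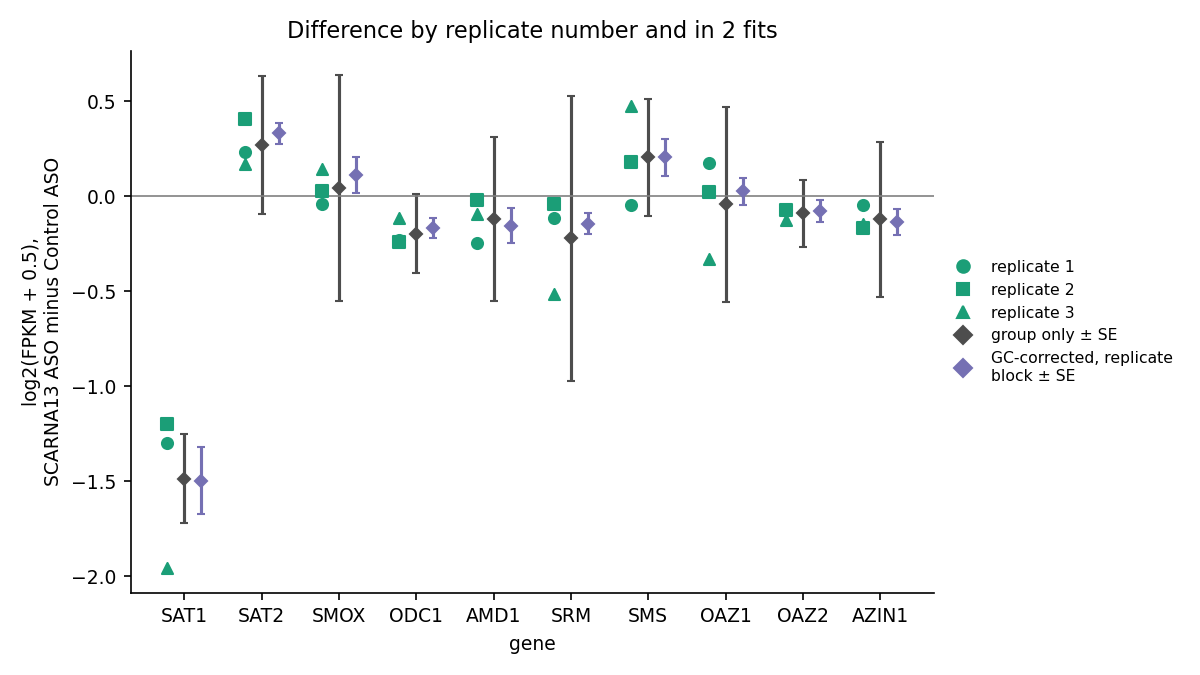
Log2(FPKM + 0.5) of SCARNA13 ASO minus Control ASO for the 10 genes: green symbols are the 3 replicate numbers, grey diamonds the fit with group alone and purple diamonds the GC-corrected fit with a replicate block, both ± SE. SAT1 lies between -1.96 and -1.20 in the 3 pairs, and SAT2 is above 0 in each of them.

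Counted over the 10 genes, the fit with group alone called 0 at an adjusted p under 0.05 (limma-trend, Benjamini-Hochberg over 10120 genes). It called 0.0% of all genes there, with 173 genes, 1 of them a polyamine gene, at an unadjusted p under 0.05. With GC correction and the replicate block, the calls included SAT1 (lower) and SAT2 (higher), 2 of 10, where 5.21% of 10104 genes were called. Without replicate 3, they included SAT1 and ODC1 (lower) and SAT2 (higher), 3 of 10, where 9.11% of 10120 genes were called. The same 2 replicates with GC correction and block gave SAT1 as lower and SAT2 as higher, where 7.55% were called (3.36% lower), while leaving out replicate 1 or 2 in that fit left 0 of the 10, where 0.139% (0.0792% lower) and 0.0% were called. In limma-voom on recovered reads with the block they included SAT1 (lower), 1 of 10, where 10.1% were called (4.92% higher, 5.19% lower), and without the block 0 genes were called in all. As the set was selected on this contrast, nothing is read from these calls or shares, and that of SAT1 restates the selection. In FPKM, groups did not overlap for SAT1 and ODC1, 2 of the 10, both lower, where 8.44% of 10120 genes did not overlap and 4.44% were lower. All 3 FPKM pairs went the same way for 7 of the 10, against 53.6% of all genes. They were lower for 6 (29.6% of all genes) and higher for SAT2 (23.9%). Of the 6, ODC1, AMD1, OAZ2 and AZIN1 had more reads in SCARNA13 ASO replicate 3 than in Control ASO replicate 3, from fewer reads in all. Against read totals that pair was therefore higher for those genes, and the ODC1 groups overlapped. The SAT2 groups did not overlap against read totals, with SAT2 higher after SCARNA13 ASO. The share of all genes without overlap was not counted on that scale. The median difference of the 10 genes was -0.10 on the log2 scale with group alone, against -0.025 for all genes tested.

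Order of level in controls, by the median per length, ran from SRM at 112 FPKM, OAZ1 at 102, SMS at 79.4 and ODC1 at 55.8 to SAT1 at 25.6, SAT2 at 25.3, SMOX at 15.0, OAZ2 at 9.09, AZIN1 at 7.35 and AMD1 at 2.90 FPKM. The control ranges of SRM and OAZ1 overlapped, as did those of SMS and ODC1, of SAT1 and SAT2, and of SAT2 and SMOX. The other neighbours in that order did not overlap. SRM took place 335 and AMD1 place 6154 among the 8888 protein-coding genes averaging 1 FPKM or more. The gene length used for FPKM equals all annotated exonic bases, retained introns included, so a gene whose main mRNA is much shorter reads low.

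The 10 genes varied between replicate numbers along their GC content. Folds here are differences of log2(FPKM + 0.5), replicate 3 minus the mean of replicates 1 and 2, turned back from the log2 scale. In controls, replicate 3 stood at 4.30 times replicates 1 and 2 for SRM (63.7% GC), 2.67 times for OAZ1 (61.2%) and 2.66 times for SMOX (61.0%). It stood at 0.472 times for AMD1 (37.7%) and 0.505 times for AZIN1 (42.3%). The added 0.5 makes these drops look smaller than in FPKM. Control ASO replicate 3 held 1.20 FPKM of AMD1, where replicates 1 and 2 averaged 3.10 FPKM. For AZIN1 these were 3.58 and 7.58 FPKM. Over the 10 genes the log2 shift of replicate 3 followed GC content with a Pearson r of 0.94 in controls and 0.97 after SCARNA13 ASO, over points that share the same libraries. SAT1 (43.3% GC) was shifted by 0.13 in controls, where the median gene of its GC decile was shifted by -0.55. After SCARNA13 ASO it was shifted by -0.58, against -0.43 for its decile. After GC correction the SAT1 difference within pairs was -1.30, -1.17 and -2.03 on the log2 scale for replicates 1, 2 and 3, again largest in replicate 3.

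**Figure D3:**
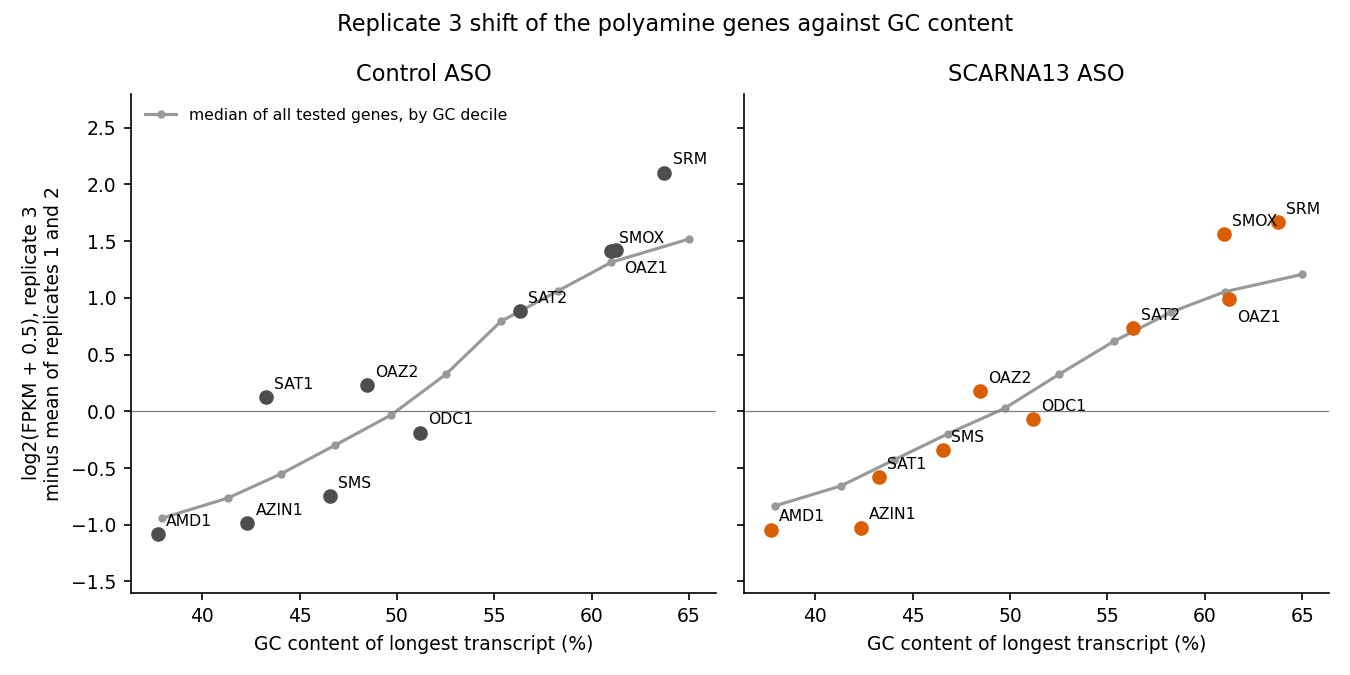
Shift of replicate 3 from the mean of replicates 1 and 2 (log2(FPKM + 0.5)) against the GC content of the longest transcript, for the 10 genes in each group, with the median of all tested genes by GC decile as a grey line. SRM, at 63.7% GC, is shifted by 2.10 in controls and AMD1, at 37.7% GC, by -1.08.

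Around SAT1 on chromosome X, 5 tested genes lay within 500 kb, and none passed the test with GC correction and block, which called 5.21% of all genes. EIF2S3 passed in other fits, as given below. PRDX4, a peroxiredoxin gene 96.8 kb away on one side, measured 63.6, 61.6 and 64.8 FPKM in controls and 58.0, 52.9 and 51.2 FPKM after SCARNA13 ASO. The groups did not overlap, and the log2 difference was -0.19 ± 0.055 with GC correction and block (SE, n = 3; limma adjusted p = 0.0927) and -0.17 ± 0.059 without replicate 3 (SE, n = 2; limma adjusted p = 0.124). ACOT9, a mitochondrial acyl-CoA thioesterase gene 16.7 kb away on that side, stood at 0.063 ± 0.092 (limma adjusted p = 0.668), and at -0.079 ± 0.048 without replicate 3 (limma adjusted p = 0.33). On the other side, APOO at 47.1 kb stood at 0.20 ± 0.10 (limma adjusted p = 0.25) and the ribosomal pseudogene RPL9P7, within 51 kb, at 0.080 ± 0.24 (limma adjusted p = 0.839). Without replicate 3, APOO stood at 0.28 ± 0.11 (limma adjusted p = 0.168) and RPL9P7 at -0.10 ± 0.46 (limma adjusted p = 0.902). EIF2S3, a subunit gene of the translation initiation factor eIF2 at 268 kb, stood at 0.33 ± 0.071 (limma adjusted p = 0.064) and was higher in 3 of 3 pairs. It rose without replicate 3, by 0.22 ± 0.045 (SE, n = 2; limma adjusted p = 0.0463), and in limma-voom with the block, by 0.34 (limma adjusted p = 0.0495), fits that called 9.11% and 10.1% of all genes.

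**Figure D4:**
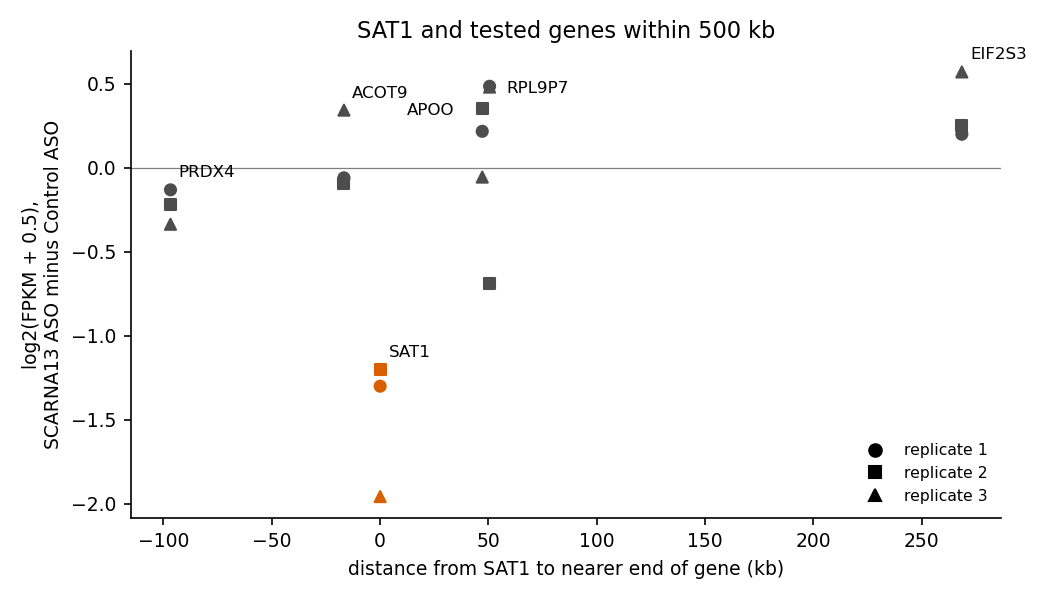
Log2(FPKM + 0.5) of SCARNA13 ASO minus Control ASO for SAT1 (orange) and the 5 tested genes within 500 kb (grey), by distance to the nearer end of each gene, with 1 symbol per replicate number. SAT1 lies between -1.96 and -1.20, and PRDX4 at 96.8 kb is below 0 in each pair.

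The 5 protein-coding genes whose pattern over the 6 libraries was most like that of SAT1 were HIST1H4I, PIGW, PTGES, ID2 and HHEX, of 8887 compared. Likeness was the root mean square difference of deviations from each gene's mean on the log2 scale, from 0.365 for HIST1H4I to 0.431 for HHEX. All 5 had lower values in every treated library than in any control, by less than SAT1. HIST1H4I, a histone H4 gene, measured 28.8, 27.0 and 47.5 FPKM in controls and 17.8, 17.3 and 15.6 FPKM after SCARNA13 ASO. PTGES, the inducible prostaglandin E synthase gene, measured 15.2, 15.8 and 19.2 FPKM against 11.2, 10.1 and 8.45 FPKM. As the measure picks genes that part the groups, their shared direction is no separate result.

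Genes of the wider pathway were counted in the same fits. Of 37 listed genes, 23 passed the filter of a mean of 1 FPKM. The fit with group alone called 0 of them, where 0.0% of all genes were called, with 0 of the 23 at an unadjusted p under 0.05. With GC correction and block, 2 rose and 0 fell, where 3.06% of all genes were called higher and 2.15% lower. In that fit the median difference of the 23 was -0.031 on the log2 scale, against 0.00026 for all genes. ASL, argininosuccinate lyase, which makes arginine, rose in that fit by 0.36 ± 0.059 (SE, n = 3; limma adjusted p = 0.045). It measured 11.8, 11.1 and 33.2 FPKM in controls and 14.0, 14.9 and 38.9 FPKM after SCARNA13 ASO. GPC1, a heparan sulphate proteoglycan linked to polyamine uptake, rose by 0.40 ± 0.051 (limma adjusted p = 0.0365). It measured 10.5, 10.8 and 38.8 FPKM in controls and 14.2, 14.5 and 41.9 FPKM after SCARNA13 ASO. Both genes were higher in 3 of 3 pairs, with overlapping groups because replicate 3 was high. Without replicate 3 the same 2 rose and OAT, ornithine aminotransferase, fell (limma adjusted p = 0.0466), 3 of 23, where 4.52% of all genes were called higher and 4.59% lower. The GC-corrected fit with block called 0 of the 23 without replicate 1 and 0 without replicate 2, where 0.139% and 0.0% of all genes were called. The block without GC correction called 0, where 0.0% of all genes were called. With so few calls in all, these counts of 0 say nothing about the 23. In limma-voom with the block ASL rose (limma adjusted p = 0.0465), while GPC1 stood just outside (limma adjusted p = 0.0501).

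PAOX, the oxidase that acts on the acetylated products of SAT1, stood at 0.29 ± 0.093 with GC correction and block (SE, n = 3; limma adjusted p = 0.117). It measured 3.41, 3.91 and 8.39 FPKM in controls and 4.85, 4.34 and 8.61 FPKM after SCARNA13 ASO. EIF5A, the translation factor whose hypusine residue is built from spermidine, measured 894, 862 and 2096 FPKM in controls and 791, 867 and 1592 FPKM after SCARNA13 ASO (-0.12 ± 0.077; limma adjusted p = 0.326). MAT2A, which makes S-adenosylmethionine, stood at -0.031 ± 0.056 (limma adjusted p = 0.732). SLC3A2, an amino acid transporter subunit also linked to polyamine transport, stood at -0.024 ± 0.067 (limma adjusted p = 0.827). Without replicate 3 (n = 2), PAOX stood at 0.29 (limma adjusted p = 0.102), EIF5A at -0.083 (limma adjusted p = 0.413), MAT2A at -0.11 (limma adjusted p = 0.19) and SLC3A2 at 0.045 (limma adjusted p = 0.652). MTAP, which clears the methylthioadenosine left by both synthases, was listed at 0 in all 6 libraries. A count of 0 there allows at most 0.00675 to 0.0157 FPKM per library (3 reads).

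**Figure D5:**
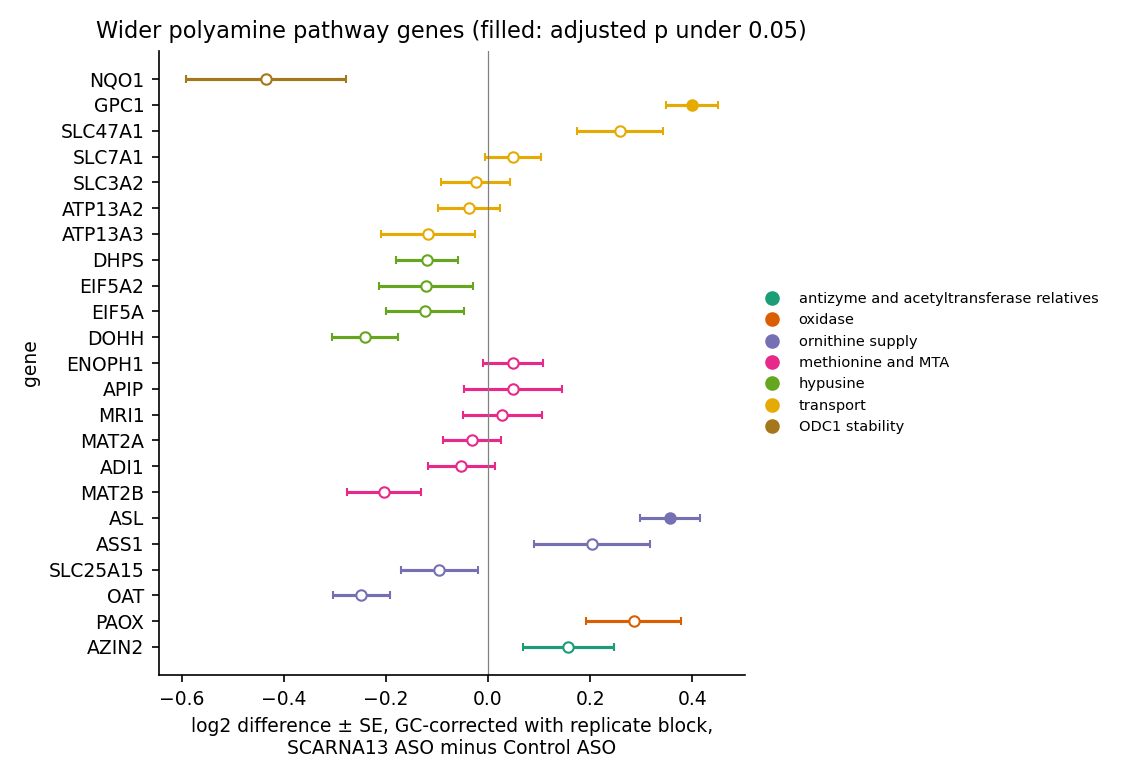
Log2 difference of SCARNA13 ASO minus Control ASO, GC-corrected with a replicate block, ± SE (n = 3), for the 23 tested genes of the wider pathway, coloured by role, filled where the limma adjusted p was under 0.05. ASL and GPC1 are filled, at 0.36 and 0.40.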

How the data were processed

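RNA was made into libraries with an Illumina TruSeq kit, per the labels' protocols. Capture of poly(A) RNA and loss of strand information are assumed from that name and were not tested. Bowtie2 2.0.6, TopHat2 2.0.9 and hg19 appear in the submitters' processing notes without a role. For the counting tool and the normalization used by the authors, the sources used here give no name. Deposited files hold 1 value per gene, taken as FPKM from the values. Positions are GRCh38, since 97.6% of 58039 identifiers had the same start and end in GENCODE 29. Each value times gene length was a whole multiple of 1 step per library (100% of values, tolerance 0.01 reads), which gave reads.

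The 10 genes and all lists were chosen with earlier results of these data known. limma-trend (limma 3.58.1, R 4.3.3) was fitted on log2(FPKM + 0.5) of the 10120 genes averaging 1 FPKM or more, with group as the only term, two-sided, Benjamini-Hochberg adjusted, at 0.05. Alternatives added the replicate number as a block, a loess GC correction per library (span 0.5, longest GENCODE transcript, 10104 genes), limma-voom on reads, other pseudocounts, filters and scalings, and left-out libraries. Replicate numbers come from the titles. Deviations from group means correlated at 0.84, 0.78 and 0.91 for equal numbers, so the numbers were taken as pairs by a rule of every such correlation exceeding 0.1. Crossing numbers 1 and 2 gave 0.81 and 0.81, so the values set replicate 3 apart and do not tell 1 from 2. Named genes were the 10, SCARNA13, wider-pathway genes called or most abundant in their role, the 5 genes most like SAT1 and its neighbours; others named were chosen after their values were seen. Among pseudogenes of the 10 by symbol, the highest total was 6 reads over 6 libraries (ODCP).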

Additional observations from a re-analysis of the deposited data

How the results depend on the processing

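The fit with group alone called 0 genes, and so did every change of pseudocount, filter or scaling, GC correction without a block, limma-voom without a block and the replicate block without GC correction (2598 genes at an unadjusted p under 0.05). The replicate block with GC correction called 526 genes in all, 2 of the 10 polyamine genes and 2 of the wider pathway. limma-voom on recovered reads with the replicate block called 1023, 1 (SAT1) and 1 (ASL). Leaving out libraries or replicate numbers gave 0 to 922 genes in all, 0 to 3 polyamine genes and 0 to 3 wider-pathway genes. With GC correction and block, 526 became 14 without replicate 1, 0 without replicate 2 and 763 without replicate 3, and polyamine genes called became 0, 0 and 2. A fit of replicates 1 and 2 with the block and no GC correction, added after the data were seen, called 629, 1 (SAT1) and 1 (GPC1). SAT1 lay between -1.66 and -1.23 on the log2 scale over 24 alternatives, SAT2 between 0.024 and 0.56 and ODC1 between -0.26 and -0.097, none changing sign. OAZ1 turned to 0.057 with equal read totals and 0.027 with GC correction, with or without the replicate block, and OAZ2 to 0.0048 with equal read totals, which moved the median of all genes by 0.083. Without replicate 3, SMOX stood at -0.0075 with group alone or the replicate block and -0.021 with block and GC correction, and OAZ1 at 0.10 and 0.086, while OAZ1 stood at 0.049 without replicate 2 with block and GC correction. With 1 library left out, SMOX ran from -0.48 to 0.51, AMD1 from -0.48 to 0.23 and SRM from -0.78 to 0.48. SMS ran from -0.045 to 0.36, OAZ1 from -0.37 to 0.43 and AZIN1 from -0.45 to 0.22. Such fits hold unlike replicate numbers in the 2 groups. With a whole replicate number left out, AMD1 ran from -0.22 to -0.057, SRM from -0.31 to -0.075 and AZIN1 from -0.18 to -0.091. SMS then ran from 0.069 to 0.33, SMOX from -0.021 to 0.18 and OAZ1 from -0.15 to 0.10. The causes were not tested.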

Other observations

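MTAP was not alone in having 0 reads. Of 24 protein-coding genes within 1000 kb of it on chromosome 9, MTAP included, 20 had 0 reads over the 6 libraries, a window looked at after the value of MTAP was seen. They included the cell cycle inhibitor genes CDKN2A and CDKN2B, beside MTAP, and interferon genes, which are silent in most unstimulated cells. On one side of the window, KLHL9 had 2374 reads and FOCAD 1756 reads. NQO1, whose protein protects ODC1 from decay, was lower in every treated library than in any control, at 0.928, 0.927 and 0.929 FPKM against 1.12, 1.30 and 1.95 FPKM in controls. With GC correction and block NQO1 stood at -0.44 ± 0.16 (SE, n = 3; limma adjusted p = 0.139), and at -0.26 without replicate 3 (limma adjusted p = 0.197). SLC47A1, an organic cation exporter gene, was higher in every treated library, at 2.08, 1.82 and 2.07 FPKM against 1.63, 1.52 and 1.68 FPKM in controls. In the same fit it stood at 0.26 ± 0.084 (SE, n = 3; limma adjusted p = 0.116), and at 0.24 without replicate 3 (limma adjusted p = 0.173). Both were named after their values were seen, and groups did not overlap for 2 of the 23 wider-pathway genes, where 8.44% of all genes did not overlap.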
